A study of Mus musculus with 8 samples.

Results

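The enzymes of bile acid synthesis were described in mouse liver across 4 genotypes, as 10 named genes: Cyp7a1, Cyp8b1, Cyp27a1, Cyp7b1, Cyp39a1, Akr1d1, Hsd3b7, Amacr, Slc27a5 and Baat. They are 10 of the 12393 genes measured, named for their place in the pathway. Of the probe sets on the array, which are the groups of short probes that report 1 transcript, 14 were assigned to exactly 1 of these genes, and 4 of the genes had more than 1. Each gene was read from its brightest probe set, by the mean of 8 Affymetrix arrays, and the remaining probe sets served as a check. The mice had a C57BL background and standard chow, and 2 arrays per genotype were made, from wild-type, SHP-/-, OB-/- or OB-/-/SHP-/- liver. SHP-/- mice carry a knockout of small heterodimer partner (gene Nr0b2), a nuclear receptor that has no DNA-binding domain and represses other receptors. OB-/- mice carry a knockout of leptin, the fat-derived hormone that restrains feeding, and OB-/-/SHP-/- mice carry both knockouts. Age and sex are not given in the labels, and the labels do not say that arrays of a genotype come from different animals. The p-values therefore reflect only array-to-array spread, which may be technical.

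Bile acids are made from cholesterol in hepatocytes. In the classical pathway Cyp7a1 adds a hydroxyl group at carbon 7 and sets the rate, while Cyp8b1 adds the hydroxyl group that makes cholic acid. In the alternative pathway sterol 27-hydroxylase, Cyp27a1, acts first, and the oxysterol 7-alpha-hydroxylase Cyp7b1 follows. Cyp39a1 is another oxysterol 7-alpha-hydroxylase, and the oxysterol it prefers is named with its values below. Hsd3b7 and Akr1d1 then modify the sterol rings, Amacr prepares the side chain for shortening in peroxisomes, and Slc27a5 and Baat couple the bile acid to coenzyme A and then to taurine or glycine. When bile acids accumulate, the receptor FXR (gene Nr1h4) induces SHP, which represses the receptors LRH-1 (gene Nr5a2) and HNF4-alpha (gene Hnf4a), activators of Cyp7a1 and Cyp8b1.

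Promoter sequences of 4 of the 10 genes matched the RefSeq promoter table of the mouse build GRCm38.p6, those of Akr1d1, Cyp27a1, Cyp8b1 and Hsd3b7. The 250 bases before the annotated start are printed for Cyp8b1, which was lower in leptin-null liver, and for Akr1d1, which was higher there. Capitals mark letters that match CAAAGTCCA, a form of the element bound by HNF4-alpha, or CAAGGNCA, a form of the element bound by LRH-1, each searched on both strands.
Cyp8b1 promoter, chr9:121916306-121916555, minus strand: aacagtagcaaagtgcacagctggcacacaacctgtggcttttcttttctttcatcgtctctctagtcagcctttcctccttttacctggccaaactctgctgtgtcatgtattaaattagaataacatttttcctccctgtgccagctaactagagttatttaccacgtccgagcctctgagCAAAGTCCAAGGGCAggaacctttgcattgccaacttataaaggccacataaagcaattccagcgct
Akr1d1 promoter, chr6:37529923-37530172, plus strand: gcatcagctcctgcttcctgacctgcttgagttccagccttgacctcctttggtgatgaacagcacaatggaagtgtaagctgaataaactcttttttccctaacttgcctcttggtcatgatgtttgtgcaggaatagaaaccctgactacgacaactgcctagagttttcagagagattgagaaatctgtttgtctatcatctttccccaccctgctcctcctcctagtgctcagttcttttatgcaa
In the Cyp8b1 promoter the HNF4-alpha form lay 67 to 59 bases before the start and the LRH-1 form 60 to 53 bases before it, so that they overlapped and appear as 1 run of capitals. The Akr1d1, Cyp27a1 and Hsd3b7 windows held neither set of letters, which says nothing about binding of either receptor. Of 32851 mouse promoter windows of this length, 0.384% held the HNF4-alpha form, 5.53% the LRH-1 form and 11 windows (0.0335%) both. Both forms were chosen with the Cyp8b1 sequence known, so these shares describe the windows and test nothing.

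Values are on the log2 scale, on which a difference of 1 is a 2-fold change, and array medians lay between 5.45 and 5.56. Errors of differences are moderated standard errors (SE) from limma, and a gene was called changed at a p-value below 0.05 after Benjamini-Hochberg adjustment over all 12393 genes. Nr0b2 itself read 8.74 and 8.71 in wild-type, 7.78 and 8.31 in SHP-/- arrays, 8.01 and 8.01 in OB-/- arrays and 7.11 and 6.66 in OB-/-/SHP-/- arrays. It was still measured in both SHP knockouts, and whether its only probe set lies in the deleted part is not known here. The 3' probe set of the Gapdh control exceeded the 5' one by 0.79 and 1.00 in the wild-type arrays, by 0.19 and 0.35 in SHP-/- and by -0.07 to 0.11 in both leptin-null genotypes, an offset that grows as RNA degrades. Xist, which marks female cells, read 7.41 in OB-/- replicate 1 and 4.31 to 4.70 on the other arrays, while Y-linked Eif2s3y read 6.57 to 7.50 on every array, so OB-/- replicate 1 stood apart. Of 10 hepatocyte markers 9 were measured, and their summed level lay between 16.34 and 16.55 on every array. However, 3 of the 9 fell in OB-/- against wild-type, where 9.36% of all genes fell. These were Tat, Cps1 and Hnf4a, but the 4 probe sets of Hnf4a gave differences from -0.76 to 1.24 there, so its direction is not settled.

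**Figure D1:**
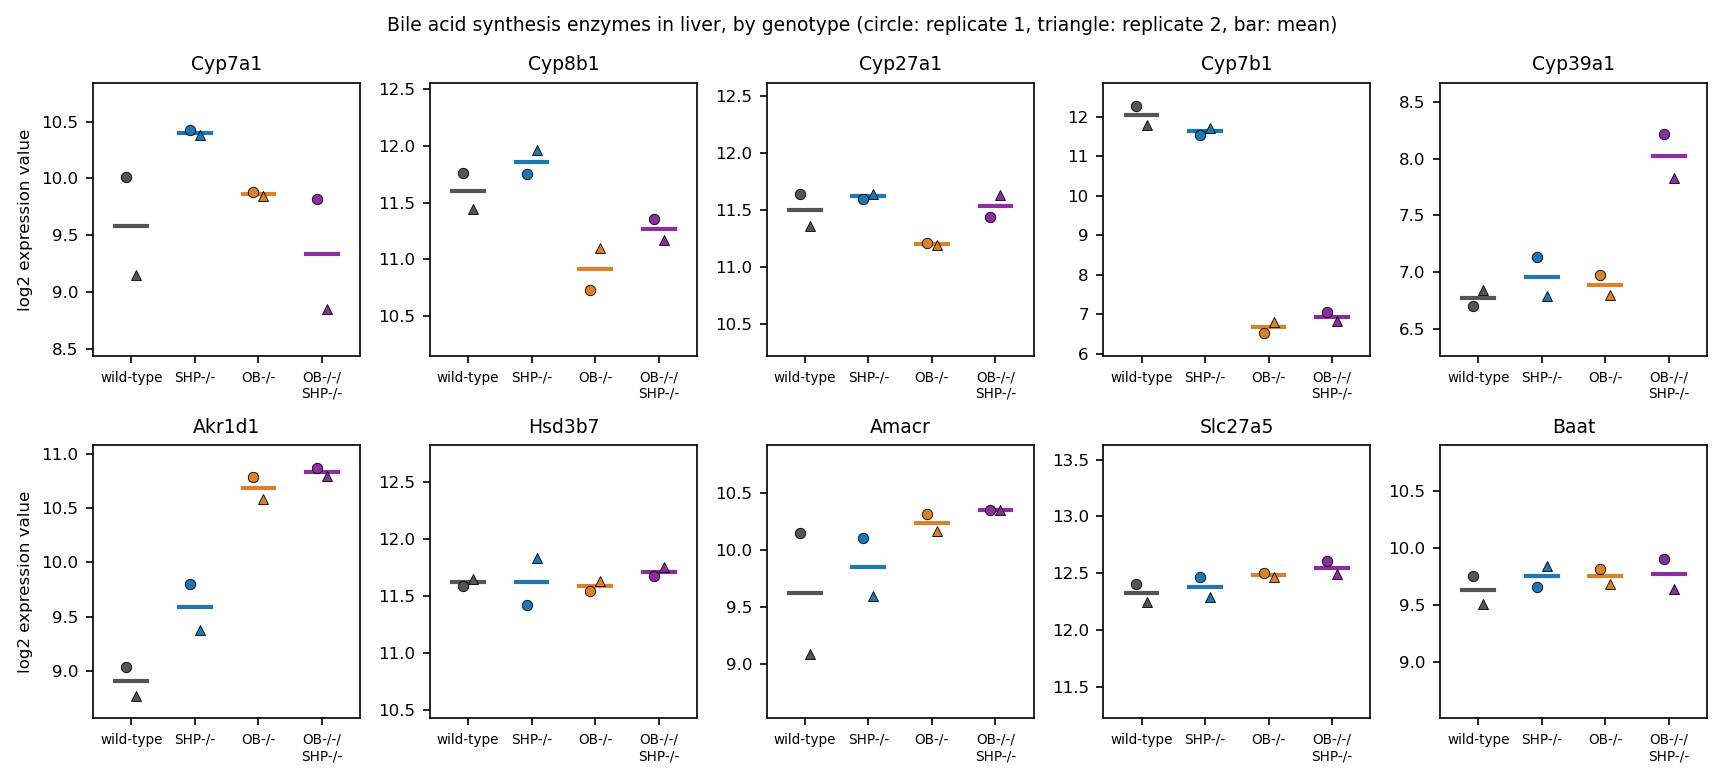
Log2 expression value of each of the 10 enzymes on the 8 arrays, with genotypes on the x axis, symbols for replicates 1 and 2 and a bar at the mean of 2 arrays. Each panel has its own scale. Cyp7b1 fell from about 12 to about 7 in both leptin-null genotypes, Akr1d1 was higher there, and Cyp39a1 was high in OB-/-/SHP-/- liver.

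Of the 10 enzymes, 0 and 1 were called with SHP loss and 3 and 4 with leptin loss, a difference in counts that was not itself tested. In SHP-/- against wild-type, limma called 0 of the 10, while 3 had p below 0.05 before adjustment. It called 0.323% of all genes (0.226% higher and 0.0968% lower). In OB-/-/SHP-/- against OB-/-, 1 of the 10 rose, Cyp39a1, with 2.14% of all genes called (1.26% higher and 0.88% lower). In OB-/- against wild-type, 3 of the 10 changed (Akr1d1 rose, Cyp7b1 and Cyp8b1 fell), with 16.9% of all genes called (7.58% higher and 9.36% lower). In OB-/-/SHP-/- against SHP-/-, 4 of the 10 changed (Akr1d1 and Cyp39a1 rose, Cyp7b1 and Cyp7a1 fell), with 10.6% of all genes called (4.95% higher and 5.62% lower). In OB-/-/SHP-/- against wild-type, 3 changed (Akr1d1 and Cyp39a1 rose, Cyp7b1 fell), with 15.9% of all genes called (7.6% higher and 8.25% lower). The counts of 3 and 4 are above those shares, but on 10 genes each rests on few members. The interaction, which asks whether the effect of SHP loss differs between the leptin backgrounds, called 0 of the 10 by limma, with 4 at an unadjusted p below 0.05 and 0.549% of all genes called (0.355% higher and 0.194% lower).

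The median difference of the 10 enzymes was 0.15 in SHP-/- against wild-type, where the median of all genes was -0.03. It was 0.14 in OB-/-/SHP-/- against OB-/- (all genes 0.01), 0.12 in OB-/- against wild-type (all genes -0.01) and 0.05 in OB-/-/SHP-/- against SHP-/- (all genes 0.03). SHP-/- against wild-type called 0 of the 10. Where members were called, the median was small beside their differences, but called members are selected in part for their size. Comparisons that use the same genotype share its arrays, so they are set side by side and not counted as separate evidence.

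**Figure D2:**
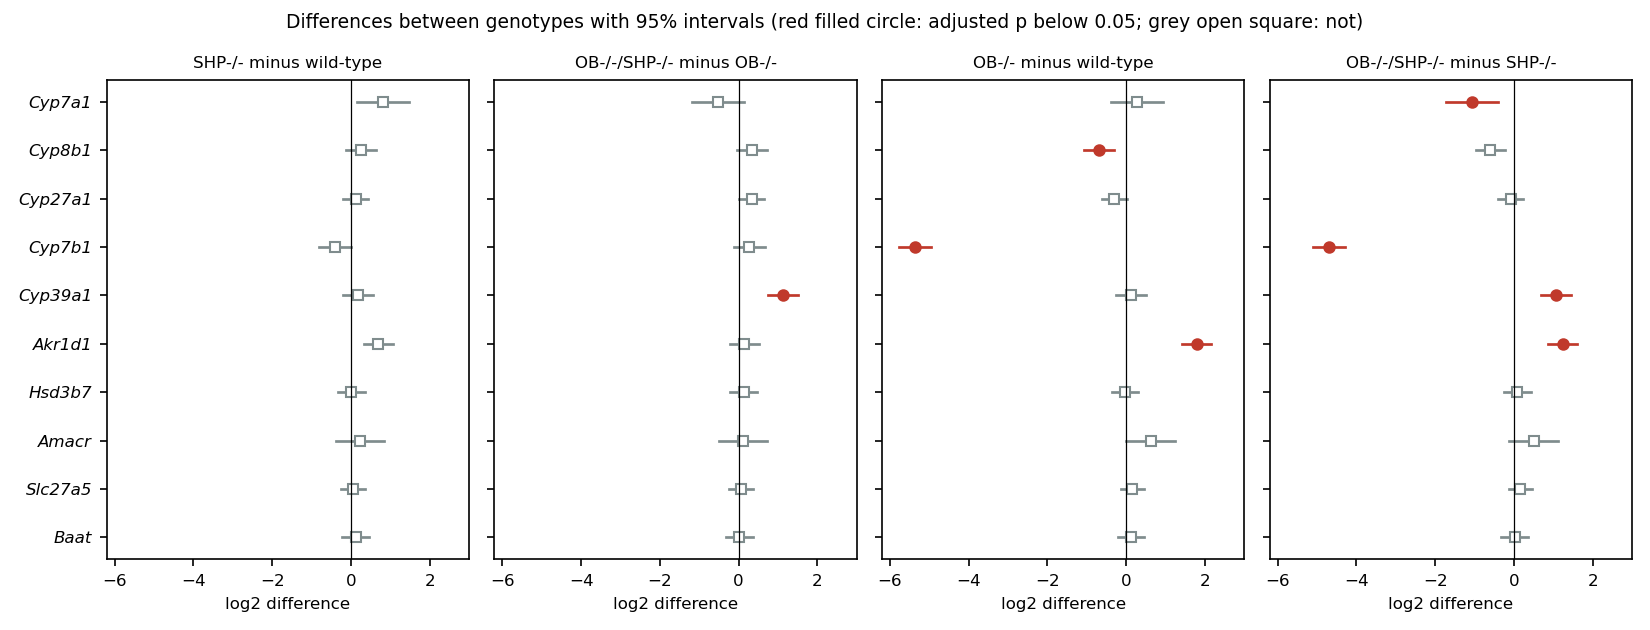
Log2 difference (x axis) of each enzyme in 4 comparisons, with 95% intervals from limma that are not adjusted for the number of genes. Filled red circles passed an adjusted p of 0.05 and open grey squares did not. The 5-unit fall of Cyp7b1 with leptin loss stands apart from the other differences.

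Cyp7a1, the rate-limiting enzyme, read 10.02 and 9.15 in wild-type, 10.43 and 10.38 in SHP-/- arrays, 9.88 and 9.84 in OB-/- arrays and 9.82 and 8.85 in OB-/-/SHP-/- arrays. Both SHP-/- arrays lay above the other 6, both OB-/- arrays lay inside the wild-type range, and the ranges of wild-type and OB-/-/SHP-/- overlapped. Cyp7a1 fell 2.10-fold in OB-/-/SHP-/- against SHP-/- (-1.07 ± 0.30, SE, n = 2 arrays each, adjusted p = 0.0455). That call was lost in 11 of 20 alternatives, among them without OB-/-/SHP-/- replicate 2 (-0.59, adjusted p = 0.309), without either SHP-/- array or either OB-/- array (up to 0.115), with robust eBayes, in a fit to the 4 arrays compared and on the other probe set (adjusted p = 0.173). SHP-/- minus wild-type was 0.82 ± 0.30 (95% interval 0.16 to 1.48, adjusted p = 0.564), and OB-/-/SHP-/- minus OB-/- was -0.53 ± 0.30 (-1.19 to 0.13, adjusted p = 0.559). With single arrays left out they ran from 0.38 to 1.25 and from -1.01 to -0.046, the ends set by leaving out 1 or the other wild-type array and 1 or the other OB-/-/SHP-/- array. The interaction of -1.35 ± 0.43 did not pass (adjusted p = 0.320).

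The dimmer probe set of Cyp7a1 gave another order of the genotypes. It read 7.69 and 6.33 in wild-type, 9.05 and 8.60 in SHP-/- arrays, 8.76 and 8.51 in OB-/- arrays and 8.23 and 7.68 in OB-/-/SHP-/- arrays. On this probe set wild-type was lowest, although its higher array was level with the lower OB-/-/SHP-/- array, whereas on the brighter probe set OB-/-/SHP-/- had the lowest mean. With every probe set tested by itself, OB-/- minus wild-type was 1.63 ± 0.36 on the dimmer probe set (adjusted p = 0.0128) and 0.28 ± 0.31 on the brighter one (adjusted p = 0.628). SHP-/- minus wild-type was 1.82 ± 0.36 on the dimmer probe set (adjusted p = 0.0808). The brighter exceeded the dimmer by 2.33 and 2.83 in the wild-type arrays and by 1.12 to 1.78 in the other 6, and the wild-type arrays were also those with Gapdh offsets of 0.79 and 1.00. The part of RNA quality in this disagreement was not tested. For Akr1d1, Baat and Cyp7b1 the gap between probe sets differed less between genotypes, at 1.43 to 1.86, 2.54 to 2.97 and -0.29 to 0.40 over the arrays.

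**Figure D3:**
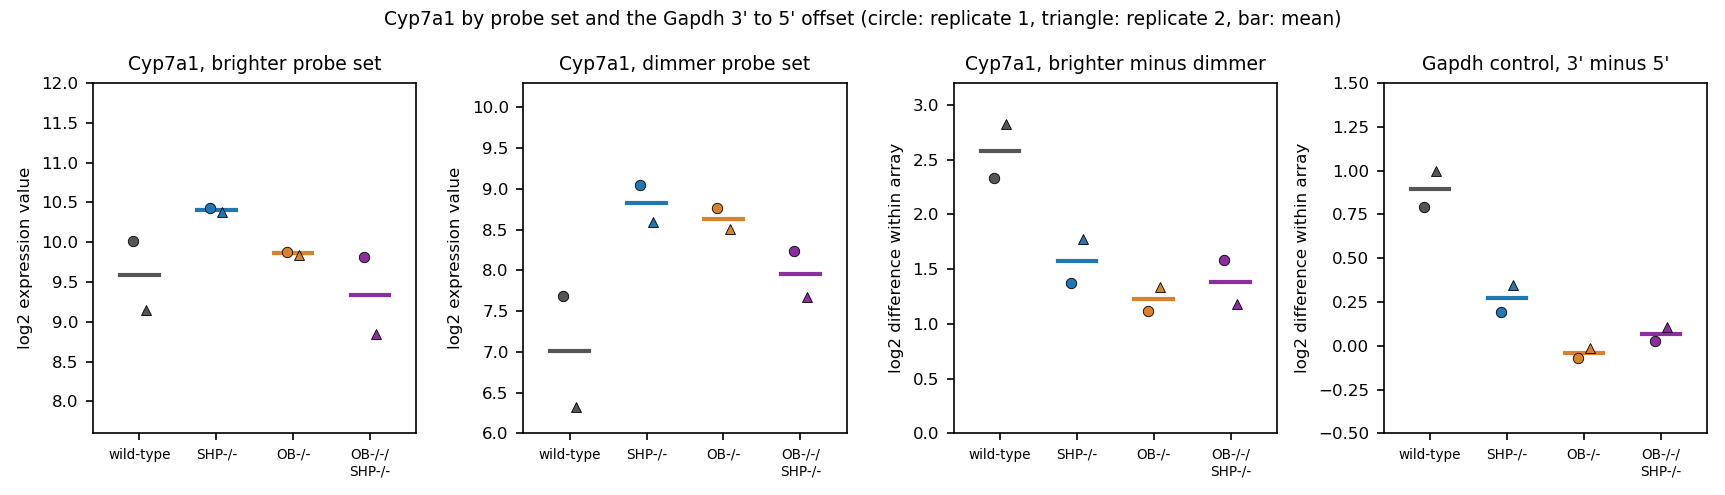
Cyp7a1 on its brighter and its dimmer probe set (log2 expression value), the difference between both within each array, and the Gapdh 3' minus 5' offset, by genotype, with a bar at the mean of 2 arrays. The wild-type arrays have the largest gap between the Cyp7a1 probe sets (2.33 and 2.83) and the largest Gapdh offsets.

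Cyp8b1, which directs synthesis to cholic acid and whose promoter is printed above, read 11.76 and 11.44 in wild-type, 11.75 and 11.97 in SHP-/- arrays, 10.74 and 11.10 in OB-/- arrays and 11.35 and 11.17 in OB-/-/SHP-/- arrays. All 4 leptin-null arrays lay below all 4 leptin-intact ones, and the SHP-/- and wild-type ranges overlapped. Cyp8b1 fell 1.61-fold in OB-/- against wild-type (-0.68 ± 0.17, adjusted p = 0.0198). The call was lost without OB-/- replicate 1, the array with high Xist (-0.50, adjusted p = 0.162), and without wild-type replicate 1 (-0.52, adjusted p = 0.165). The difference of OB-/-/SHP-/- from SHP-/- was -0.59 ± 0.17 (adjusted p = 0.0502), just outside the threshold, and it passed under 4 of the alternatives, with equal array medians for example (adjusted p = 0.0417). The difference between both leptin comparisons, the interaction, was 0.09 ± 0.24 (95% interval -0.45 to 0.62, adjusted p = 0.962). SHP loss gave 0.25 ± 0.17 in leptin-intact and 0.34 ± 0.17 in leptin-null liver (adjusted p = 0.867 and 0.488).

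Cyp27a1, the mitochondrial sterol 27-hydroxylase, read 11.64 and 11.36 in wild-type, 11.60 and 11.64 in SHP-/- arrays, 11.21 and 11.19 in OB-/- arrays and 11.44 and 11.63 in OB-/-/SHP-/- arrays. The OB-/- arrays were the lowest 2 of the 8, but the difference from wild-type was -0.30 ± 0.14 (adjusted p = 0.190) and OB-/-/SHP-/- minus OB-/- was 0.34 ± 0.14 (adjusted p = 0.389). Its 95% intervals over the 6 comparisons ran from -0.62 to 0.67. Cyp27a1 is also made in macrophages, and 11 of 13 macrophage markers rose in OB-/- against wild-type, where 7.58% of all genes rose. The summed macrophage level was 10.58 to 10.62 in wild-type, 11.39 to 11.90 in SHP-/-, 12.11 to 12.12 in OB-/- and 12.23 to 12.65 in OB-/-/SHP-/-. Their part in the Cyp27a1 level was not tested.

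Cyp7b1, the oxysterol 7-alpha-hydroxylase of the alternative pathway, showed the largest change of the 10 genes. It read 12.28 and 11.79 in wild-type and 11.54 and 11.72 in SHP-/-, but 6.51 and 6.81 in OB-/- arrays and 7.06 and 6.82 in OB-/-/SHP-/- arrays. The leptin-intact and leptin-null arrays were separated by more than 4 log2 units, while the genotypes within each leptin background lay close together. Cyp7b1 fell 41.5-fold from wild-type to OB-/- (-5.37 ± 0.18, adjusted p = 1.44e-08) and 25.8-fold in OB-/-/SHP-/- against SHP-/- (-4.69 ± 0.18, adjusted p = 4.80e-08). From wild-type to OB-/-/SHP-/- it fell 34.2-fold (-5.10 ± 0.18, adjusted p = 2.04e-08). These calls passed in each alternative that was run, and the other probe set gave -5.03 and -4.12 for the first 2 comparisons. With SHP loss Cyp7b1 was -0.41 ± 0.18 in leptin-intact and 0.28 ± 0.18 in leptin-null liver (adjusted p = 0.700 and 0.648), and the interaction was 0.68 ± 0.26 (adjusted p = 0.480). In whole liver, fewer cells that make a transcript and less transcript per cell cannot be told apart, here and for the other genes.

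Cyp7b1 is known as a male-biased gene of mouse liver, whose transcription follows the male pattern of growth hormone release. Of 8 measured male-biased genes other than Cyp7b1, 6 fell and 0 rose in OB-/- against wild-type, where 9.36% of all genes fell, and 3 fell in OB-/-/SHP-/- against SHP-/-, where 5.62% fell. The steroid dehydrogenase Hsd3b5 read 10.21 and 9.75 in wild-type and 3.79 and 4.06 in OB-/- arrays (-6.05 ± 0.18, adjusted p = 8.06e-09). The complement gene C6 fell by 3.08 ± 0.23 (adjusted p = 9.72e-06), the urinary protein gene Mup3, whose probes may also bind transcripts of near-identical family members, by 1.29 ± 0.14 and Cyp4a12a by 1.16 ± 0.16. Of 8 measured female-biased genes, 6 rose in OB-/- against wild-type, where 7.58% of all genes rose, and 4 rose in OB-/-/SHP-/- against SHP-/-, where 4.95% rose. Among them the sulfotransferase Sult2a2 rose from 3.38 and 3.98 to 11.60 and 11.26 (7.75 ± 0.25), with Sult3a1 at 2.71 ± 0.27, Hao2 at 2.78 ± 0.18 and Acot3 at 2.10 ± 0.31. In OB-/-/SHP-/- against OB-/-, 1 of the 8 male-biased and 1 of the 8 female-biased genes rose and 0 fell, where 1.26% of all genes rose. These were Cyp4a12a (0.98, adjusted p = 0.00828), a call lost without OB-/- replicate 2 or OB-/-/SHP-/- replicate 1, and Sult3a1 (4.61, adjusted p = 1.76e-06). Sult3a1 also had a called interaction (4.51, adjusted p = 1.07e-04), so the named genes did not all share 1 pattern. Cyp2b9 and Cyp2b13, named after their values were seen, read 4.34 and 4.55 in OB-/-/SHP-/- replicate 1 but 10.74 and 10.31 in replicate 2. The gap between these arrays was smaller for Hao2 (6.29 and 6.82) and Sult3a1 (10.55 and 10.18), so it was not shared by all female-biased genes. Without OB-/-/SHP-/- replicate 1, Cyp7b1 was -4.81 in OB-/-/SHP-/- against SHP-/-. Y-linked Eif2s3y was 6.79 to 6.99 in the OB-/- arrays and 6.88 to 7.09 in the wild-type arrays. Cyp7b1 fell by 5.23 without OB-/- replicate 1, the array with high Xist. The wild-type values of Sult2a2 and the OB-/- values of Hsd3b5 lay below 4.83, the 40th percentile of probe sets. How far background sets the size of their differences was not measured, and the SE does not cover it. The part of sex-biased regulation in these changes was not tested.

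**Figure D4:**
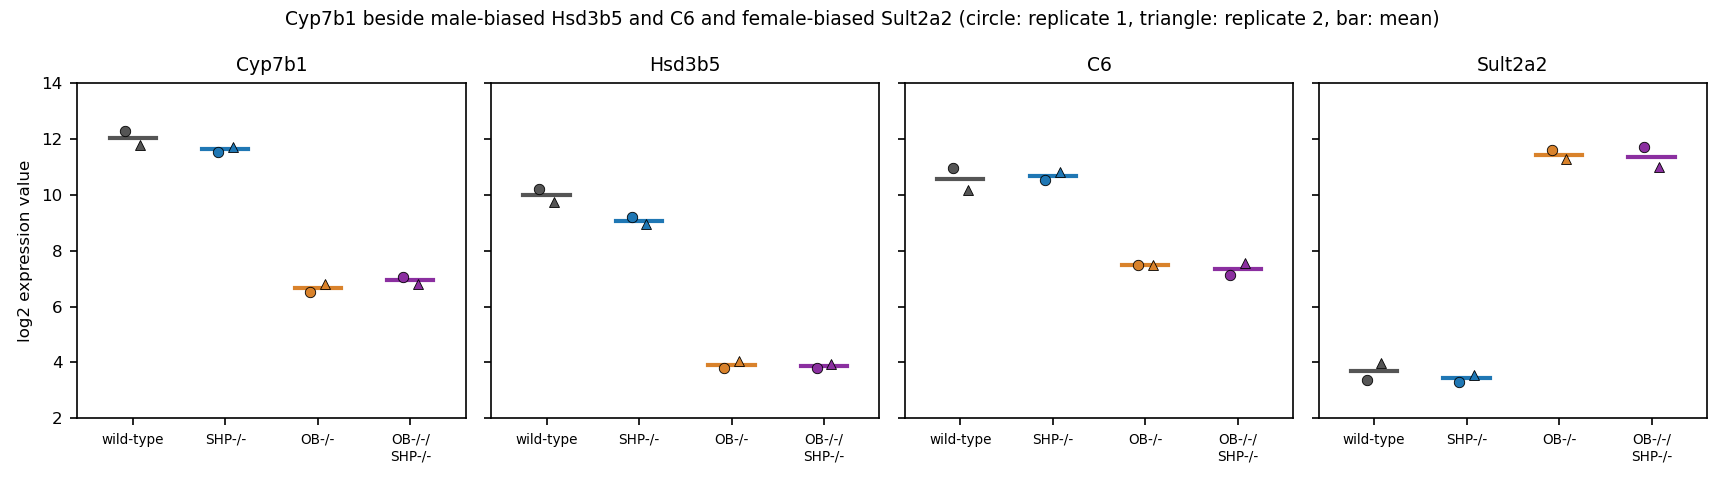
Log2 expression values on the 8 arrays of Cyp7b1, of the male-biased genes Hsd3b5 and C6 and of the female-biased gene Sult2a2, by genotype, on 1 shared scale with a bar at the mean of 2 arrays. Cyp7b1, Hsd3b5 and C6 are low and Sult2a2 is high in both leptin-null genotypes.

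Genes with a pattern like that of Cyp7b1, Cyp8b1 and Cyp7a1 were sought among 6115 genes of at least median level, by the root mean square difference over the 8 arrays after each gene was centred on its own mean. Nearest to Cyp7b1 were the insulin-like growth factor binding protein Igfbp2 (0.28 log2 units), Hsd3b5 (0.39) and the organic anion transporter Slco1a1 (0.74). Hsd3b5 and Slco1a1 reached the median level, 6.00, only through the leptin-intact arrays. Their means in OB-/- and OB-/-/SHP-/- were 3.93 and 3.87 for Hsd3b5 and 4.01 and 3.64 for Slco1a1. The level filter thus favoured genes high in leptin-intact liver, and nearness to Cyp7b1 describes the pattern and tests nothing. Nearest to Cyp8b1 were Cables2 (0.08), the splicing factor Sf3b3 (0.08) and C-reactive protein, Crp (0.11). Nearest to Cyp7a1 were Akr1c14 (0.25), Smim10l1 (0.27) and the carbonic anhydrase-related Car8 (0.27). A gene that varies little lies near many others by this measure, so the small distances for Cyp8b1 go with its small range.

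Cyp39a1, a 7-alpha-hydroxylase with a preference for 24-hydroxycholesterol, was higher where both knockouts were combined. It read 6.71 and 6.84 in wild-type, 7.13 and 6.79 in SHP-/- arrays, 6.98 and 6.80 in OB-/- arrays and 8.22 and 7.83 in OB-/-/SHP-/- arrays. Both double-knockout arrays lay above the other 6, whose ranges overlapped between genotypes. Cyp39a1 rose 2.20-fold against OB-/- (1.14 ± 0.17, adjusted p = 0.00551), 2.09-fold against SHP-/- (1.06 ± 0.17, adjusted p = 0.00325) and 2.38-fold against wild-type (1.25 ± 0.17, adjusted p = 8.18e-04). SHP-/- minus wild-type was 0.19 ± 0.17 and OB-/- minus wild-type 0.11 ± 0.17 (adjusted p = 0.927 and 0.727). The interaction, 0.95 ± 0.24 (95% interval 0.41 to 1.48), did not pass over all genes (unadjusted p = 0.00246, adjusted p = 0.185), so the rise is not shown to need both knockouts. The call against OB-/- was lost without OB-/- replicate 2 (1.05, adjusted p = 0.0849), while those against SHP-/- and wild-type passed with each single array left out.

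Akr1d1, the steroid 5-beta-reductase that shapes the ring system of bile acids, rose with leptin loss. It read 9.03 and 8.77 in wild-type, 9.80 and 9.38 in SHP-/- arrays, 10.79 and 10.59 in OB-/- arrays and 10.87 and 10.80 in OB-/-/SHP-/- arrays. The 2 leptin-null genotypes did not overlap with either leptin-intact one, and wild-type lay below SHP-/-. Akr1d1 rose 3.45-fold from wild-type to OB-/- (1.79 ± 0.17, adjusted p = 5.40e-05) and 2.37-fold in OB-/-/SHP-/- against SHP-/- (1.24 ± 0.17, adjusted p = 0.00105). From wild-type to OB-/-/SHP-/- the rise was 3.82-fold (1.93 ± 0.17, adjusted p = 2.98e-05). The other probe set gave 1.71, 1.47 and 1.95, and the calls passed in each alternative that was run. With SHP loss alone the difference was 0.69 ± 0.17 (95% interval 0.32 to 1.06, adjusted p = 0.170), and between OB-/-/SHP-/- and OB-/- it was 0.15 ± 0.17 (-0.22 to 0.52, adjusted p = 0.830). The interaction was -0.54 ± 0.24 (adjusted p = 0.578). The order of the 4 genotype means of Akr1d1 was the reverse of that of the Gapdh offset but for the 2 leptin-null genotypes, whose offsets were -0.04 and 0.07. Offsets of 0.07 and 0.27 went with a rise of 1.24 in OB-/-/SHP-/- against SHP-/-, and in OB-/- against wild-type, offsets of -0.04 and 0.90 went with a rise of 1.79. The part of RNA quality in the Akr1d1 levels was not tested.

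Hsd3b7, the 3-beta-hydroxysteroid dehydrogenase of the pathway, read 11.59 and 11.65 in wild-type, 11.42 and 11.83 in SHP-/- arrays, 11.54 and 11.63 in OB-/- arrays and 11.67 and 11.75 in OB-/-/SHP-/- arrays. The spread within SHP-/- was wider than the spread of the 4 genotype means, and the 95% intervals over the 6 comparisons ran from -0.37 to 0.60. Amacr, the racemase that prepares the side chain, read 10.15 and 9.09 in wild-type, 10.11 and 9.60 in SHP-/- arrays, 10.32 and 10.17 in OB-/- arrays and 10.36 and 10.36 in OB-/-/SHP-/- arrays. The leptin-null arrays were the highest 4, and wild-type replicate 2 was the lowest of the 8. OB-/- minus wild-type was 0.62 ± 0.28 (adjusted p = 0.167) and OB-/-/SHP-/- minus wild-type 0.74 ± 0.28 (adjusted p = 0.103). Without wild-type replicate 1 both passed (1.15 and 1.27, adjusted p = 0.0143 and 0.0112), and without wild-type replicate 2 they were 0.09 and 0.20 (adjusted p = 0.858 and 0.632), so the gap between the wild-type arrays decides their size.

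Neither conjugating enzyme was called in any of the 6 comparisons. Slc27a5, the bile acid coenzyme A ligase, read 12.40 and 12.25 in wild-type, 12.47 and 12.30 in SHP-/- arrays, 12.50 and 12.46 in OB-/- arrays and 12.60 and 12.49 in OB-/-/SHP-/- arrays. Baat, which transfers the bile acid to taurine or glycine, read 9.76 and 9.51 in wild-type, 9.66 and 9.84 in SHP-/- arrays, 9.82 and 9.68 in OB-/- arrays and 9.90 and 9.64 in OB-/-/SHP-/- arrays. For Slc27a5 all 4 leptin-null arrays lay above both wild-type arrays, while for Baat the ranges overlapped between each pair of genotypes. Their 95% intervals over these ran from -0.41 to 0.52 for Slc27a5 and from -0.58 to 0.48 for Baat, so 2-fold changes lie outside them.

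Taurine, the partner in conjugation, is supplied by other enzymes, of which 4 of 6 listed were measured. Csad, the cysteine sulfinic acid decarboxylase of taurine synthesis, read 9.62 and 9.28 in wild-type and 9.10 and 9.16 in OB-/- arrays, but 11.46 and 11.39 in SHP-/- and 11.30 and 10.80 in OB-/-/SHP-/-. The arrays of both SHP-null genotypes lay above those of both SHP-intact ones. Csad rose with SHP loss in leptin-intact (1.98 ± 0.18, adjusted p = 7.55e-04) and leptin-null liver (1.92 ± 0.18, adjusted p = 1.28e-04). It was the only one of the 4 called in these 2 comparisons, where 0.323% and 2.14% of all genes were called.

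Of 13 other genes of bile acid synthesis, 11 were measured. In OB-/- against wild-type 2 rose and 1 fell, where 7.58% of all genes rose and 9.36% fell. In OB-/-/SHP-/- against OB-/- 1 rose and 1 fell (all genes 1.26% and 0.88%). In OB-/-/SHP-/- against SHP-/- 2 rose, where 4.95% of all genes rose. In SHP-/- against wild-type limma called 0, with 1 at an unadjusted p below 0.05 and 0.323% of all genes called. Cyp2c70, the enzyme that makes muricholic acids in mice, read 11.64 and 11.66 in wild-type, 11.85 and 11.48 in SHP-/- arrays, 10.64 and 10.53 in OB-/- arrays and 11.48 and 11.40 in OB-/-/SHP-/- arrays. Both OB-/- arrays lay below the other 6. From wild-type to OB-/- Cyp2c70 fell by 1.07 ± 0.15 (adjusted p = 7.80e-04), whereas OB-/-/SHP-/- minus SHP-/- was -0.23 ± 0.15 (adjusted p = 0.380). It was higher in the double knockout than in OB-/- by 0.85 ± 0.15 (adjusted p = 0.0125). That rise was lost without any 1 of the 4 arrays compared (adjusted p up to 0.144), and the interaction, 0.84 ± 0.21, did not pass (adjusted p = 0.174).

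Cyp46a1, the cholesterol 24-hydroxylase, was dim, at 6.29 and 6.46 in OB-/- and 4.90 to 5.31 on the other arrays. Against wild-type, OB-/- liver held 1.31 ± 0.16 more (adjusted p = 3.54e-04). OB-/-/SHP-/- minus OB-/- was -1.26 ± 0.16 (adjusted p = 0.00223). Abcd3, a peroxisomal membrane transporter that carries bile acid precursors, was higher in OB-/- than in wild-type liver, by 0.64 ± 0.13 (adjusted p = 0.00763), and by 0.54 ± 0.13 in OB-/-/SHP-/- against SHP-/- (adjusted p = 0.0256). The first call was lost without OB-/- replicate 1 (adjusted p = 0.0714), and the second without OB-/-/SHP-/- replicate 2 or either SHP-/- array (up to 0.135). Cyp2a12, which hydroxylates bile acids in mouse liver, rose by 0.87 ± 0.14 in OB-/-/SHP-/- against SHP-/- (adjusted p = 0.00316). Its SHP-/- mean, 11.01, was the lowest of the genotypes. The wild-type mean was 11.68, the double-knockout mean 11.88 and the OB-/- mean 12.02. SHP-/- minus wild-type was -0.67 ± 0.14 and was not called (adjusted p = 0.0967).

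Of 17 genes that control the pathway, 16 were measured, and 7 fell and 0 rose in OB-/- against wild-type, where 9.36% of all genes fell. These were Ppargc1a, a coactivator (-1.25 ± 0.15, adjusted p = 3.27e-04), Mafg, a repressor of the pathway (-1.02 ± 0.17), Hnf4a (-0.76 ± 0.14), Rxra, the partner of FXR (-0.73 ± 0.14), Nr0b2 (-0.72 ± 0.19), Fgfr4, the receptor for the gut hormone FGF15 (-0.70 ± 0.20), and Nr5a2 (-0.46 ± 0.14, adjusted p = 0.0483). Rxra and Fgfr4 were named after their values were seen. Nr1h4 (FXR) was 0.24 ± 0.18 (adjusted p = 0.410). In OB-/-/SHP-/- against SHP-/- 3 fell, Nr0b2, Fgfr4 (-1.08 ± 0.20) and Rxra (-0.51 ± 0.14), where 5.62% of all genes fell. Nr0b2 is the gene knocked out in both of these genotypes. Its fall there is one of remaining probe signal, from 7.78 and 8.31 to 7.11 and 6.66, and not of an intact regulator. In SHP-/- against wild-type limma called 0 of 16, with 5 at an unadjusted p below 0.05 and 0.323% of all genes called. Nr5a2 stood at -0.02 ± 0.14 there. Hnf4a was -0.01 ± 0.14 on its brightest probe set, but 0.49, 0.52 and 1.44 on the other 3, so its level with SHP loss is not settled.

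Several of these calls rest on 1 probe set or on few arrays. The 4 probe sets of Hnf4a gave OB-/- minus wild-type between -0.76 and 1.24, with 2 below 0, the 2 of Rxra gave -0.73 and 0.54, and the 5 of Fgfr4 ran from -0.70 to 0.27. With a gene's probe sets averaged Hnf4a turned to 0.14 (adjusted p = 0.505), so its direction is not settled, and Rxra and Fgfr4 were lost. The Hnf4a probe set at 1.24 read 6.87 and 6.85 in wild-type and 7.71 to 8.50 on the other arrays. The Rxra probe set at 0.54 read 7.30 and 7.29 in wild-type and 7.71 to 8.09 elsewhere. The wild-type arrays also had Gapdh offsets of 0.79 and 1.00, and the part of RNA quality here was not tested. The 4 probe sets of Nr5a2 lay between -0.89 and -0.04, but its call was lost without any 1 of 6 arrays, wild-type and OB-/- among them (adjusted p up to 0.309). That of Nr0b2 was lost without any of the 4 arrays compared (up to 0.134), that of Fgfr4 without OB-/- replicate 2 or either wild-type array (up to 0.246) and that of Rxra without OB-/- replicate 2 or wild-type replicate 1 (up to 0.0517). Ppargc1a and Mafg kept their calls with each single array left out. In OB-/-/SHP-/- against SHP-/-, the calls of Fgfr4 and Rxra were lost without OB-/-/SHP-/- replicate 2 (adjusted p = 0.0517 for Fgfr4), and that of Rxra without any 1 of 5 further arrays (up to 0.169).

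**Figure D5:**
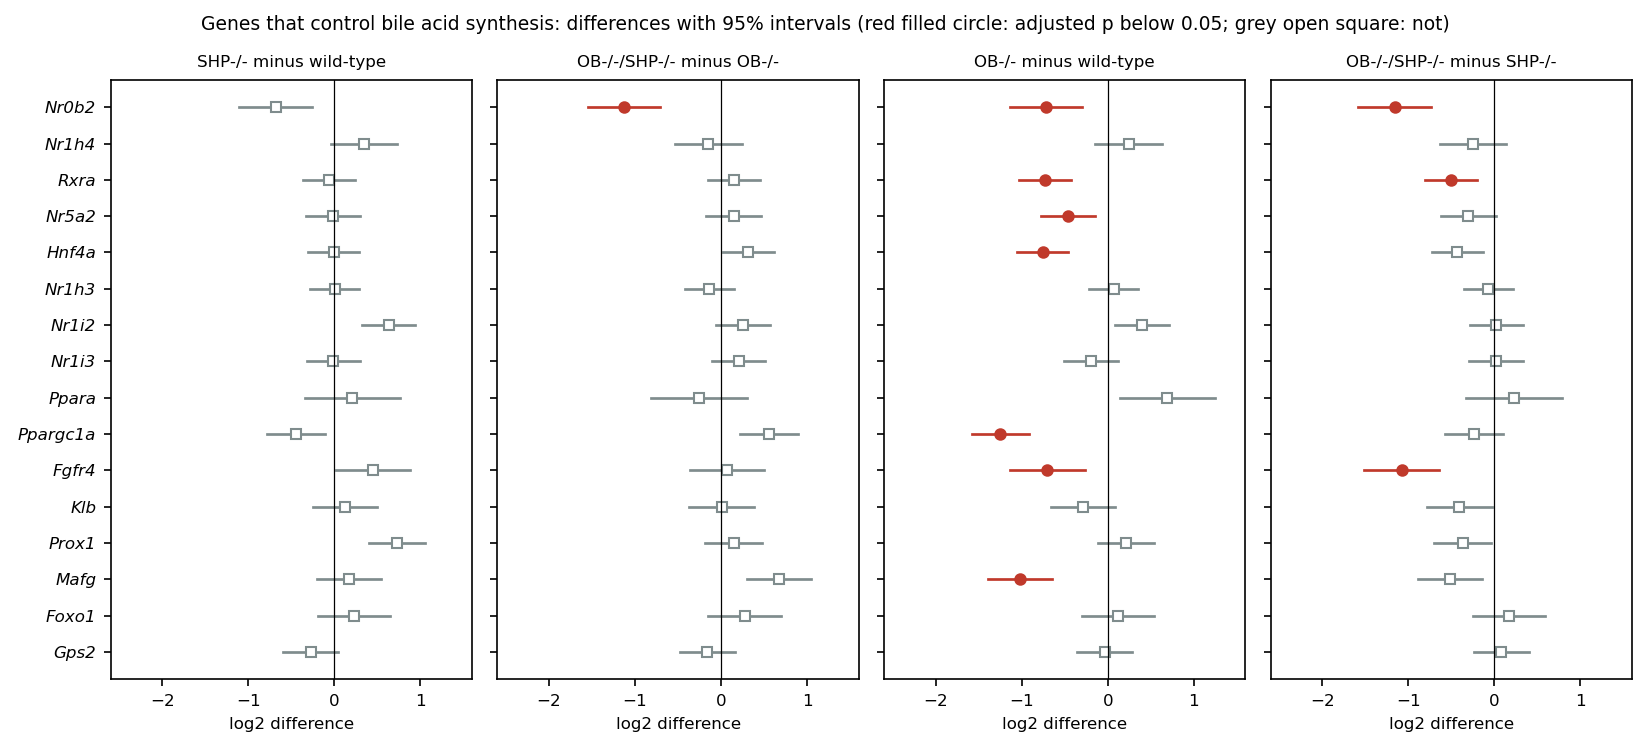
Log2 difference (x axis) of the 16 measured genes that control bile acid synthesis in 4 comparisons, each read from its brightest probe set, with 95% intervals from limma. Filled red circles passed an adjusted p of 0.05 and open grey squares did not. The 7 falls in OB-/- against wild-type include Hnf4a, whose probe sets disagree in direction.

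Of 9 measured bile acid and organic anion transporters, 4 fell in OB-/- against wild-type, where 9.36% of all genes fell and 7.58% rose, shares that also stand beside the marker counts that follow. Among the 4 were the male-biased uptake carrier Slco1a1 (-6.46 ± 0.18) and the bile salt export pump Abcb11 (-0.75 ± 0.16), whose call was lost without OB-/- replicate 2 or wild-type replicate 1 (adjusted p up to 0.0946). In OB-/-/SHP-/- against SHP-/- Abcb11 was -0.96 (adjusted p = 0.00407), a call kept in each alternative that was run. The others of the 4 were Abcb4 (-0.74, adjusted p = 0.00735) and Slco1a4 (-0.80, adjusted p = 0.0138), whose calls were also lost without some single arrays. Of 9 pericentral hepatocyte markers, those of the zone around the central vein, 5 fell and 1 rose in OB-/- against wild-type. Their summed level was 14.36 to 14.38 in wild-type and 14.11 in both OB-/- arrays. Of 5 measured periportal markers 3 fell and 0 rose. Pancreatic acinar markers were brighter in OB-/- arrays, at a summed level of 9.14 to 9.75 against 8.07 to 8.55 elsewhere, and of 5 measured cholangiocyte markers 4 or 5 were below 4.83, the 40th percentile of probe sets, in each genotype. In OB-/- against wild-type 5 of 8 pancreatic markers rose and 1 fell, 3 of 6 endothelial, 2 of 6 stellate cell and 1 of 5 lymphocyte markers rose, and limma called 0 of 5 cholangiocyte markers, with 0 at an unadjusted p below 0.05. Arrays give no true zero, so no marker can be called absent. The part of these cell types in the enzyme levels was not tested.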

How the data were processed

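The deposited values were log2 expression levels of probe sets on each array, made by the authors. The submitters' processing notes name R 2.15.0. How background was corrected and probes summarised, and the base of the logarithm, is not given in the sources used here. The range of values, 2.20 to 14.19, was read as base 2, and near-equal array medians were taken as normalised. Of 22690 probe sets, 64 controls were left out, and 20380 of the 22626 others named 1 gene, 691 several and 1555 none. Symbols came from the array annotation, checked against RefSeq (GRCm38.p6). Each gene took its probe set with the highest mean, without a filter or pseudocount, which gave 12393 genes. Arrays give no counts, so their number limits the precision.

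Genotype and replicate number came from the sample titles. With limma 3.58.1 (R 4.3.3, with the data.table package at version 1.17.8) the 4 genotype means were estimated jointly from the 8 arrays, with 4 residual and 7.16 prior degrees of freedom, and the scripts were checked on simulated data. Tests were two-sided, and each comparison's p-values were adjusted across the 12393 genes with the Benjamini-Hochberg procedure. The enzymes, the 16 lists (131 of 151 genes measured), the promoter motifs and the rule for named genes were chosen with earlier results of these data known. Under that rule the 10 enzymes were named whatever their values. From each other list up to 4 genes by smallest adjusted p were named, marker lists being given as counts, together with Nr0b2, Nr1h4, Nr5a2 and 3 genes of similar pattern for each of Cyp7a1, Cyp8b1 and Cyp7b1. Nothing in the labels says that replicate numbers pair samples. Alternatives covered normalisation, a filter on dim genes, eBayes options, the choice of probe set, the arrays fitted, the replicate block and each array left out. With 1 array left out, its genotype's lone array is assumed to vary like the others.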

Additional observations from a re-analysis of the deposited data

How the results depend on the processing

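Of the 11 calls made on the 10 enzymes over 6 comparisons, 201 of 216 repeats under an alternative kept direction and call, 15 lost the call and 0 reversed. Of the 49 differences that were not called, 893 of 948 repeats stayed so with the same sign, 8 became calls and 47 changed sign. With single arrays left out, the number of enzymes called ran from 0 to 1 in OB-/-/SHP-/- against OB-/-, from 2 to 3 in OB-/- against wild-type, and from 3 to 4 in OB-/-/SHP-/- against SHP-/- and against wild-type. The differences below changed sign, and the cause was not tested. Those of the enzymes were not called. In SHP-/- minus wild-type, Hsd3b7 was -0.018 under quantile normalisation and -0.012 with equal array medians. With equal array medians Baat was -0.020 in OB-/-/SHP-/- minus SHP-/- and Cyp27a1 -0.023 in OB-/-/SHP-/- minus wild-type. Cyp7a1 in OB-/-/SHP-/- minus wild-type was 0.35 with probe sets averaged and 0.95 on the other probe set. Among control genes, differences that had been called as falls reversed with the choice of probe set. With probe sets averaged, Hnf4a was 0.14 in OB-/- and 0.41 in OB-/-/SHP-/- minus wild-type and Rxra 0.092 in the latter, and without probe sets marked as shared between transcripts Hnf4a was 0.28 and 0.56. Without OB-/- replicate 1 and SHP-/- replicate 1 together, SHP-/- minus wild-type was -0.022 for Amacr and -0.029 for Slc27a5, OB-/- minus wild-type was 0.016 for Hsd3b7, OB-/-/SHP-/- minus SHP-/- was -0.11 for Hsd3b7 and -0.073 for Baat, and the interaction was 0.21 for Amacr, -0.20 for Cyp8b1 and -0.13 for Hsd3b7. With each single array left out, SHP-/- minus wild-type ran from -0.30 to 0.76 for Amacr, -0.0064 to 0.24 for Baat, -0.022 to 0.26 for Cyp27a1, -0.20 to 0.21 for Hsd3b7 and -0.029 to 0.14 for Slc27a5. OB-/-/SHP-/- minus OB-/- ran from -0.11 to 0.15 for Baat. OB-/- minus wild-type ran from -0.0066 to 0.24 for Baat, -0.15 to 0.71 for Cyp7a1 and -0.076 to 0.016 for Hsd3b7. OB-/-/SHP-/- minus SHP-/- ran from -0.11 to 0.15 for Baat, -0.18 to 0.013 for Cyp27a1 and -0.11 to 0.29 for Hsd3b7. OB-/-/SHP-/- minus wild-type ran from -0.11 to 0.18 for Cyp27a1 and -0.73 to 0.23 for Cyp7a1. The interaction ran from -0.65 to 0.41 for Amacr, -0.23 to 0.030 for Baat, -0.094 to 0.27 for Cyp8b1, -0.085 to 0.32 for Hsd3b7 and, with both arrays named above left out as well, -0.077 to 0.11 for Slc27a5. SHP-/- against wild-type gave 40 genes, 68 with a trend in eBayes, 100 with every probe set by itself, 23 in a fit to the arrays compared and 5 to 95 with single arrays left out. OB-/-/SHP-/- against OB-/- gave 265, 119 without both arrays named above and 80 to 298 with single arrays left out. OB-/- against wild-type gave 2100, then 3592 with every probe set, 1121 without both arrays and 956 to 2234 with single arrays left out. OB-/-/SHP-/- against SHP-/- gave 1311, 615 in a fit to the arrays compared, 632 without both arrays and 600 to 1307 with single arrays left out. The interaction gave 68, 120 with every probe set, 39 without both arrays and 32 to 113 with single arrays left out, and OB-/-/SHP-/- against wild-type gave 1965, 3350 with every probe set and 820 to 1998 with single arrays left out. Deviations of same-numbered arrays correlated at 0.132, 0.196 and 0.103 among OB-/-, OB-/-/SHP-/- and wild-type, and at -0.107, -0.0082 and -0.099 between these and SHP-/-. Not every pair of genotypes passed 0.1, so the numbers were not taken to pair samples. With the replicate number as a block, 0, 1, 3, 4, 0 and 4 enzymes were called in SHP-/- against wild-type, OB-/-/SHP-/- against OB-/-, OB-/- against wild-type, OB-/-/SHP-/- against SHP-/-, the interaction and OB-/-/SHP-/- against wild-type. The added call was Amacr (0.74, adjusted p = 0.0459). Against wild-type the block ended the calls of Nr5a2 in OB-/- (adjusted p = 0.0563) and Hnf4a in OB-/-/SHP-/- (0.0537). Signal over background is not given in the table, so how far dim probe sets limit these values was not measured.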
